A study of Rattus norvegicus with 18 samples.

Results

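The synaptic vesicle release genes are those whose symbols name synaptotagmins, syntaxins and syntaxin-binding proteins, VAMPs, synapsins, SV2 proteins, complexins, Rab3 proteins, RIMs, Unc13 proteins, Snap25 or Syp. They were found by symbol alone, and 69 of the 31201 gene names in either table matched. The day 30 table held all 69, and the day 7 table held 66, without Stx19, Syt14 and Syt16. RNA was sequenced from rat motor cortex, in neurons that the series describes as enriched, after spinal cord injury. At day 7 there were 3 male inj libraries and 3 male Sham libraries. At day 30 there were 3 In libraries and 3 S libraries of each sex. What In and S stand for is not written out in the labels, and both names are kept here. Strain, age, injury level and the number of animals behind a library were not given in the sources used here. Whether replicates are separate animals is not stated either, so p-values measure only the spread between these libraries.

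Neurons release transmitter when a docked vesicle fuses with the presynaptic membrane. SNARE proteins of the vesicle (VAMP2) and of the target membrane (syntaxin and SNAP25) zip together, Munc13 (Unc13a) prepares them, complexin holds them and synaptotagmin-1 triggers fusion when calcium enters. RIM and Rab3 proteins tie vesicles to the active zone, synapsins hold the reserve pool, and synaptophysin (Syp) and SV2 proteins sit in the vesicle membrane. Many syntaxins and VAMPs of the same families instead serve traffic through the Golgi, endosomes and lysosomes in all cells.

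The promoters of 4 members show what sequence lies at the genes that the results below turn on. Sv2b and Stx1a were higher and Rab3c was lower in inj libraries at day 7, and Unc13a had the smallest p-value of all members in the day 30 male comparison. Each runs from 250 bases before to 50 bases after the gene's start, from RefSeq on GRCr8, 5′ to 3′ along the gene. The positions are chr1:138562209-138562508 for Sv2b, chr12:27306422-27306721 for Stx1a, chr2:43575894-43576193 for Rab3c and chr16:18415737-18416036 for Unc13a, all on the minus strand. Capitals mark the motif matches described next.
Sv2b: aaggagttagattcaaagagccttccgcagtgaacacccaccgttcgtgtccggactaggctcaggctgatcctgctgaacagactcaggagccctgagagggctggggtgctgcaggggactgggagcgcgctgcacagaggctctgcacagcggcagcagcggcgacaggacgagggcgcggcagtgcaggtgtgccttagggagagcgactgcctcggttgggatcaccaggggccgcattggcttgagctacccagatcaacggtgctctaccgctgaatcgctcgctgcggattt
Stx1a: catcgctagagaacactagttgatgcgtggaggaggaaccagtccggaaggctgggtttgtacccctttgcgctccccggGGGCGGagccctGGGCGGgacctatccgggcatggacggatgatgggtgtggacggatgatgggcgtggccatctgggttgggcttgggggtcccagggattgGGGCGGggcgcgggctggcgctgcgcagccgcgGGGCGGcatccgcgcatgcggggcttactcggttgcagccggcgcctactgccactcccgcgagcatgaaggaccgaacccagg
Rab3c: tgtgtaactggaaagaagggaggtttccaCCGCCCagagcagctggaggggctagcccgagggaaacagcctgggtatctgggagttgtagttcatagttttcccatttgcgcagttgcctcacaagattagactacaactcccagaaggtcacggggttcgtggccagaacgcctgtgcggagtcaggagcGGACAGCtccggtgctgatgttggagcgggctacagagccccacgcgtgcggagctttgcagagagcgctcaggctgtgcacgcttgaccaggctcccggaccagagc
Unc13a: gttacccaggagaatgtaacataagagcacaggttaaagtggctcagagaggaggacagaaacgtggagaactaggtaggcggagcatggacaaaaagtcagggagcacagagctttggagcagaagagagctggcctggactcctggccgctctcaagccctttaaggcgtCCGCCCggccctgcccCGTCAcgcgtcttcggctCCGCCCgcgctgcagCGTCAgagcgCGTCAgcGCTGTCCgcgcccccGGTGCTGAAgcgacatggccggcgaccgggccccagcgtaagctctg

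Of the 69 members, 52 had a single promoter entry and were used. A further 3 had more than 1 entry and were left out. Such symbols were also left out of the genes tested at day 7, but not of all promoters. The motifs searched on both strands were the GC box GGGCGG, the cAMP response element TGACGTCA and its core TGACG, the parts TTCAGCACC and GGACAGC of the RE1 element bound by the neuronal repressor REST, and TATAAA. TGACGTCA contains TGACG, so those matches overlap. The GC box was in 36 of 52 member promoters (69.2%), against 33.1% of all 33469 promoters and 62.4% of the 8756 promoters of genes tested at day 7. TATAAA was in 5.77% of member promoters, 14.2% of all promoters and 6.45% of those tested at day 7. TGACGTCA was in 2 member promoters (3.85%, against 1.83% of all and 3.29% of those tested at day 7), those of Syn1 and Vamp1. TGACG was in 30.8% of member promoters, 21.2% of all and 32.0% of those tested at day 7. TTCAGCACC was in 1 member promoter, that of Unc13a, in 0.356% of all promoters and in 0.48% of those tested at day 7. GGACAGC was in 13.5% of member promoters, 6.59% of all and 7.56% of those tested at day 7. Stx1a had 4 GC boxes, while the Sv2b window held none of these letters. A match describes the letters and shows neither a site nor a cause.

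The inj libraries held 14650528 to 17013273 counts and the Sham libraries 2683105 to 3014083, so depth moved with the group at day 7 and its part was not tested, while day 30 totals ran from 14532252 to 27849794. Levels are given in CPM, depth-scaled counts with TMM factors computed within a day's table, and were not compared between days or between genes. RNA of other cells was present although neurons were said to be enriched: Mbp, a myelin gene, took 4.94 to 6.83% of counts in inj and 5.81 to 14.5% in Sham libraries. At day 30 it took 0.551% in male In 1 and 2.12 to 3.84% in the other libraries. Mitochondrially encoded genes took 0% of the day 7 counts used here and 27 to 60.2% of day 30 counts, so totals, CPM and shares of all genes have a different base on each day. The neuronal markers Rbfox3 and Map2 were detected in every group. Sham 1-RNA was the farthest of the 3 Sham libraries from the others in 38 of 62 tested members (46.3% of all genes). Male In 1 was the lowest of the 12 day 30 libraries in 32 of 66 tested members (24.8% of all genes). It was also the highest of them in 12 members (23.4% of all genes). Whether Sham 1 and Sham 1-RNA are 1 sample is not stated, and if they are, Sham has 2 samples.

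At day 7 the members split. Of the 62 tested, 10 rose and 8 fell in inj against Sham (edgeR's quasi-likelihood test, adjusted p below 0.05), while 34.7% of all tested genes were called, 19.3% higher and 15.4% lower. An unadjusted p below 0.05 was found in 26 members and 44.4% of all genes. The vesicle proteins Sv2b, Sv2a and Syp, the target SNARE Stx1a, the active zone protein Rims1 and several synaptotagmins rose. Rab3c, Rab3b, Unc13b and syntaxins and VAMPs of endosomes and the Golgi fell. The median log2 fold change of the members was -0.12, against -0.0020 for all genes. The share of members called (18 of 62) lay near the background. In 13 members every inj library lay above every Sham library and in 12 every one lay below, where 26.4% and 21.9% of all genes did so. The remaining 4 members of that table, Cplx4, Stx11, Syt15 and Syt8, did not pass the filter on low counts. Cplx4 had 0, 0 and 1 counts in inj and 3, 2 and 7 in Sham, and it was called by DESeq2 and by edgeR without the filter, which tested all 66 members. In this bulk RNA, fewer cells of a type and less RNA per cell cannot be told apart.

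**Figure D1:**
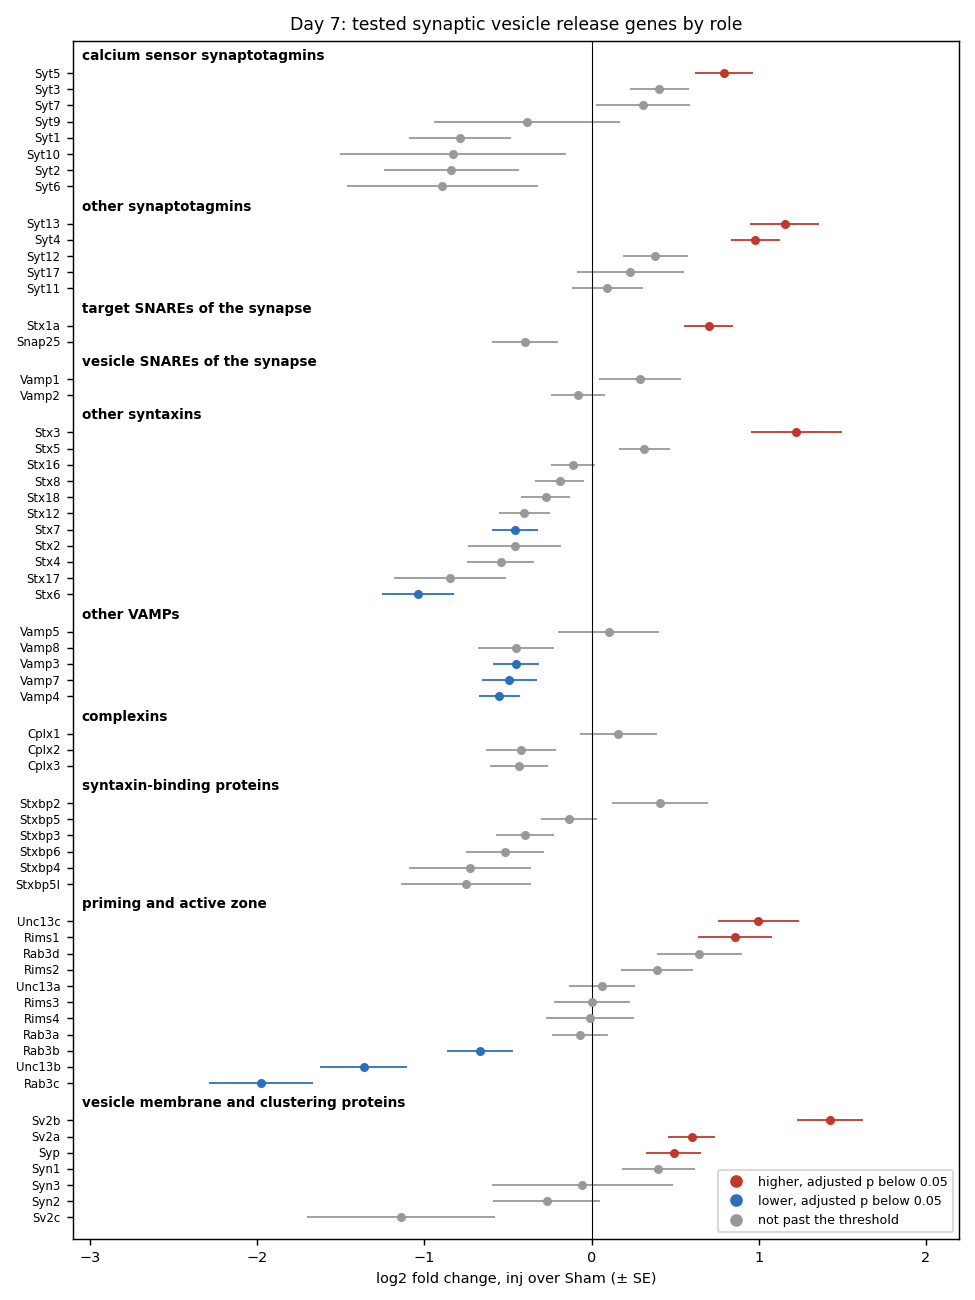
Log2 fold change of inj over Sham at day 7 for the tested members described here, grouped by role, with bars of 1 SE. Red points passed the test as higher (10), blue points as lower (8) and grey points did not pass. The points run from -1.98 (Rab3c) to 1.43 (Sv2b).

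Among the vesicle membrane proteins, 3 of 7 rose and none fell. Sv2b, one of the SV2 glycoproteins that bind synaptotagmin and whose family includes the target of levetiracetam, had 116, 180 and 141 CPM in inj libraries, against 49.6, 65.1 and 47.7 CPM in Sham libraries. Every inj library lay well above every Sham library, and the log2 fold change was 1.43 ± 0.19 (SE, adjusted p = 0.000433). Sv2a, that drug's target, had 178, 203 and 166 CPM in inj, against 121, 109 and 132 CPM in Sham. The groups did not overlap, with a log2 fold change of 0.60 ± 0.14 (adjusted p = 0.009). Syp, synaptophysin, averaged 624 ± 65.0 CPM in inj and 444 ± 60.0 CPM in Sham (SD, n = 3 each). It rose by 0.49 ± 0.16 on the log2 scale (adjusted p = 0.0429), and it lost the call with RLE scaling and without any 1 of 5 of the 6 libraries (adjusted p up to 0.145). Syn1, the synapsin that clusters vesicles at mature terminals, had 593, 644 and 382 CPM in inj, against 370, 490 and 369 CPM in Sham. Its groups overlapped because inj 4 lay among the Sham values (log2 fold change 0.40 ± 0.22, adjusted p = 0.188). Syn2 stood at -0.27 ± 0.32 and Sv2c, with 0.587 to 1.97 CPM in inj and 1.64 to 4 CPM in Sham, at -1.14 ± 0.56, and neither passed. Syn3 stood at -0.05 ± 0.54.

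The synaptic SNAREs did not move as a unit. Stx1a, a target-membrane syntaxin, had 433, 462 and 384 CPM in inj, against 241, 288 and 259 CPM in Sham. All inj libraries were higher, by 0.70 ± 0.15 on the log2 scale (adjusted p = 0.00492). Snap25, a further target SNARE, averaged 1300 ± 216 CPM in inj and 1712 ± 252 CPM in Sham, with 2 inj libraries below all Sham libraries. Its log2 fold change of -0.40 ± 0.20 did not pass (adjusted p = 0.149). It passed by limma-voom and without Sham 1-RNA (0.0186), with adjusted p from 0.0186 to 0.66 over all alternatives. Vamp2, the vesicle SNARE of most cortical synapses, had 1047, 1144 and 931 CPM in inj, against 1053, 1158 and 1096 CPM in Sham. The values overlapped (log2 fold change -0.08 ± 0.16, adjusted p = 0.725). Vamp1, the related vesicle SNARE, stood at 0.29 ± 0.24 (adjusted p = 0.393).

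Among the synaptotagmins, those that sense calcium and those without strong calcium binding were grouped apart. Of 8 calcium sensors, 1 rose and none fell, with a median log2 fold change of -0.59. Syt1, the sensor of synchronous release in the cortex, had 119, 196 and 84.5 CPM in inj, against 191, 312 and 185 CPM in Sham. The groups overlapped through inj 3, and -0.79 ± 0.30 missed the threshold (adjusted p = 0.0705), though it passed by DESeq2, by limma-voom and without inj 3 (0.0127), with a range of 0.0127 to 0.266 over the alternatives. Syt2, the fast sensor of inhibitory and hindbrain synapses, stood at -0.84 ± 0.40 (adjusted p = 0.136), and passed by limma-voom and without Sham 1-RNA (0.0071), with a range of 0.0071 to 0.505. Syt5, a further sensor, rose by 0.79 ± 0.17 (adjusted p = 0.0062). It had 72.1, 89.1 and 97.2 CPM in inj, against 42.6, 60.0 and 46.6 CPM in Sham, with no overlap.

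Of the 5 tested synaptotagmins of the other group, 2 rose and none fell. Syt4, which binds calcium weakly and is induced by activity, had 110, 146 and 135 CPM in inj, against 63.9, 63.6 and 71.2 CPM in Sham. The Sham libraries lay close together and all inj libraries were far above them (0.98 ± 0.15, adjusted p = 0.000755). Syt13, a synaptotagmin without calcium-binding residues, had 36.2, 39.9 and 25.8 CPM in inj, against 14.3, 17.1 and 14.2 CPM in Sham. Here too the groups were apart, by 1.15 ± 0.21 (adjusted p = 0.00216). Syt11, Syt12 and Syt17 stood between 0.09 and 0.38 and did not pass.

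**Figure D2:**
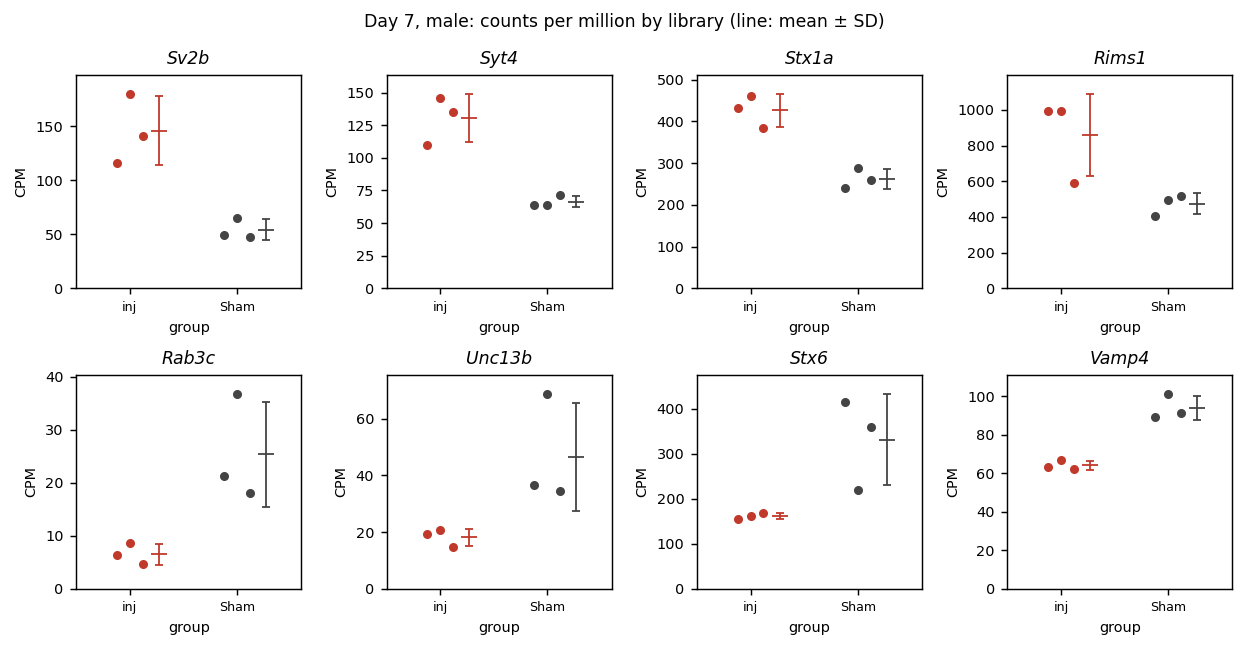
CPM in each inj and Sham library at day 7 for 8 members, with the mean and SD of each group. Sv2b, Syt4, Stx1a and Rims1 lie higher in inj, and Rab3c, Unc13b, Stx6 and Vamp4 lie lower, with no overlap in any of the 8.

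Priming and active zone members went both ways, with 2 of 11 higher and 3 lower. Rims1, the main active zone RIM, had 991, 992 and 592 CPM in inj, against 407, 496 and 516 CPM in Sham. The groups did not touch, although inj 4 was much closer to Sham than the others (0.86 ± 0.22, adjusted p = 0.0133). The call ended without inj 2 (0.0644), inj 3 (0.0554) or Sham 1 (0.055). Rims2, Rims3 and Rims4 stood between -0.01 and 0.39 and did not pass. Unc13a, the Munc13 of most excitatory terminals, had 84.0, 95.4 and 58.5 CPM in inj, against 79.9, 84.0 and 63.9 CPM in Sham, and these ranges overlapped fully (0.06 ± 0.20, adjusted p = 0.839). Unc13b, the Munc13-2 gene, had 19.1, 20.6 and 14.8 CPM in inj, against 36.5, 68.7 and 34.6 CPM in Sham. All inj values were lower, by -1.36 ± 0.26 (adjusted p = 0.00289), and Sham 1-RNA was the highest Sham library. Unc13c, the Munc13-3 gene known from the cerebellum, rose by 1.0 ± 0.24 (adjusted p = 0.0105), with 52.5, 51.0 and 43.5 CPM in inj, against 15.2, 34.9 and 23.1 CPM in Sham.

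The Rab3 GTPases, which carry vesicles to RIM, fell in 2 of 4 members. Rab3c had 6.27, 8.54 and 4.59 CPM in inj, against 21.3, 36.7 and 18.1 CPM in Sham. This was the lowest log2 fold change of any tested member, -1.98 ± 0.31 (adjusted p = 0.000986), and the groups were well apart. Rab3b had 16.2, 17.7 and 19.1 CPM in inj, against 30.3, 33.5 and 20.4 CPM in Sham. It fell by 0.67 ± 0.19 on the log2 scale (adjusted p = 0.0245), with Sham 3 just above the inj values. It lost the call in 5 of 13 alternatives, library totals (adjusted p = 0.208) and leaving out inj 2, inj 3, Sham 1 or Sham 1-RNA. Rab3a, the most studied isoform of cortical terminals, had 286, 337 and 293 CPM in inj and 286, 389 and 287 CPM in Sham, and did not pass (-0.07 ± 0.17, adjusted p = 0.779). Rab3d stood at 0.64 ± 0.25 (adjusted p = 0.0757), with every inj library above every Sham library.

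Complexins and syntaxin-binding proteins showed no called change in any of 10 tested members. Cplx1 stood at 0.16 ± 0.23 and Cplx2, its partner at excitatory synapses, at -0.42 ± 0.21 (adjusted p = 0.151). Cplx3, the complexin of ribbon synapses and of deep cortical neurons, had 21.2, 25.3 and 26.0 CPM in inj, against 32.8, 38.2 and 26.9 CPM in Sham, a difference of -0.43 ± 0.17 (adjusted p = 0.0751). Stxbp5l, a tomosyn, stood at -0.75 ± 0.39 and Stxbp3, which acts in other cell types, at -0.40 ± 0.17, and neither passed.

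Among the syntaxins and VAMPs of other membranes, 5 of 16 fell and 1 rose. Stx6, of the trans-Golgi network, had 155, 162 and 167 CPM in inj, against 415, 219 and 360 CPM in Sham. Inj values were close together and all below Sham (-1.04 ± 0.22, adjusted p = 0.00456). Vamp4, its SNARE partner, had 63.3, 66.7 and 62.4 CPM in inj, against 89.3, 101 and 91.6 CPM in Sham, and fell by 0.55 ± 0.12 on the log2 scale (adjusted p = 0.00677). The late endosomal Stx7 (-0.46 ± 0.14, adjusted p = 0.0278) and Vamp7 (-0.49 ± 0.16, 0.0409) and the recycling endosome's Vamp3 (-0.45 ± 0.14, 0.0287) also fell. Vamp7 lost its call in 7 of 13 alternatives, among them the sum of Sham 1 and Sham 1-RNA (adjusted p = 0.0596), and Vamp3 and Stx7 each lost theirs in 5 of 13, with adjusted p up to 0.385, 0.358 and 0.428 for Vamp7, Vamp3 and Stx7. Stx3, a syntaxin of apical membranes and dendritic spines, had 10.1, 10.6 and 8.27 CPM in inj, against 5.33, 3.27 and 3.85 CPM in Sham. All inj libraries were above Sham (1.23 ± 0.27, adjusted p = 0.00635). Stx12 (-0.40 ± 0.15) and Stx4 (-0.54 ± 0.20), which did not pass, passed by DESeq2.

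The split of these calls moved with the scaling. With library totals in place of TMM, 16 members rose and 3 fell, while the median of all genes moved to 0.28. With limma-voom 15 fell. The number that fell was 4 without inj 2, 4 without Sham 1 and 5 without Sham 3. Rab3c, Unc13b, Stx6, Sv2b, Syt4, Syt13, Stx1a, Syt5, Stx3, Sv2a and Unc13c passed in every alternative run, and Vamp4 in all but library totals (-0.28, adjusted p = 0.193, the highest of a range that begins at 0.00023).

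Genes of related lists, some of which act outside the terminal or in other cells, also went both ways. Of 7 tested tetraspanning vesicle proteins 6 rose, among them Syngr2 (2.52 ± 0.20), Scamp1 (0.93 ± 0.15) and Sypl1 (1.30 ± 0.22), none of which is confined to neurons. Of 18 active zone and priming genes, 3 rose and 4 fell. The ELKS scaffolds Erc1 (-1.51 ± 0.14) and Erc2 (-2.93 ± 0.37) and the giant scaffold Pclo (-1.98 ± 0.32) fell, and Rabac1 (0.85 ± 0.13) and the liprin Ppfia3 (1.04 ± 0.20) rose. Of 12 other SNAREs 4 fell, led by the Golgi SNARE Bet1 (-0.70 ± 0.15) and Use1 (-0.94 ± 0.20). Of 16 proton pump subunits 5 rose, including Atp6v0a1 (1.1 ± 0.14), and none fell. Of 11 genes that take SNAREs apart or chaperone them, Sncg (1.31 ± 0.21) and Hspa8 (0.61 ± 0.15) rose and Napb (-1.09 ± 0.33) fell. Of 27 vesicle endocytosis genes, Sh3gl1 (0.56 ± 0.15) rose and Eps15 (-1.33 ± 0.25) and Sh3gl3 (-1.35 ± 0.28) fell. Of 4 tested vesicle transporters, Slc17a7, the glutamate transporter VGLUT1, rose (1.06 ± 0.21).

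Markers of other cells moved with the day 7 comparison. All 8 microglial markers rose, with a summed level of 3135 to 3313 CPM in inj and 501 to 699 CPM in Sham, as did all 7 endothelial markers (1877 to 2227 CPM in inj and 225 to 311 CPM in Sham). All 7 pericyte markers rose too (1191 to 1341 CPM in inj and 178 to 282 CPM in Sham). Of 10 inhibitory neuron markers 7 fell and 1 rose, the sum being 314 to 404 CPM in inj and 423 to 491 CPM in Sham. Of 9 pan-neuronal markers 1 rose and 3 fell, with 1449 to 2453 CPM in inj and 2408 to 2551 CPM in Sham. Inj 4, lowest in 24 of 62 members and in 17.6% of all genes, was also low in these markers. Of 7 excitatory neuron markers 1 rose and none fell, with 3916 to 5091 CPM in inj and 3409 to 3940 CPM in Sham. Astrocyte markers summed to 3560 to 4807 CPM in inj and 7229 to 7747 CPM in Sham without overlap, although 2 of 8 rose and 3 fell. Of 8 oligodendrocyte markers 1 rose and 3 fell (60201 to 76441 CPM in inj and 70333 to 206614 CPM in Sham), and of 6 precursor markers 3 rose. No choroid plexus marker was called, and 1 of 5 ependymal markers fell. The summed members stood at 8179 to 11048 CPM in inj and 9394 to 9710 CPM in Sham. The part of these cell markers in the members' changes was not tested.

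At day 30 no member was called between In and S in either sex, by edgeR, DESeq2 or limma-voom. In males 0 of 66 tested members passed, with 0% of all genes called, and 3 members had an unadjusted p below 0.05 (8.17% of all genes). In females 0 of 66 passed, with 0.0332% of all genes called, and 1 member had an unadjusted p below 0.05 (1.73% of all genes). The untested members were Cplx4, Stx11 and Stx19, the last of which had no count in any library. The median log2 fold change of the members was -0.04 in males and -0.03 in females, and in males 3 members were lower in every In library than in every S library (5.17% of all genes) and none was higher. In females 6 members were lower and 1 was higher in every In library (3.81% and 4.21% of all genes).

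In males Unc13a had 13.7, 26.3 and 16.5 CPM in In, against 31.2, 28.9 and 41.1 CPM in S. Every In library was below every S library, at -0.84 ± 0.27 (adjusted p = 0.599). Rims3, a short RIM without the Rab3-binding end, had 2.28, 11.2 and 10.8 CPM in In, against 14.9, 20.4 and 23.8 CPM in S. These groups were apart too, with In 1 far the lowest (-1.27 ± 0.44, adjusted p = 0.599). Syt4 stood at -0.43 ± 0.20 (adjusted p = 0.608), with overlapping groups. Of the members with positive values, Sv2c (0.42 ± 0.23), Vamp8 (0.41 ± 0.23) and Vamp5 (0.72 ± 0.46) had the smallest p-values and none passed.

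Male In 1 set several of these male values. Cplx2 had 1.43 CPM in In 1, against 18.1 and 12.2 CPM in the other In libraries and 12.7 to 25.9 CPM in S. Rims2 had 8.93 CPM in In 1, against 64.4 and 56.2 CPM in the other In libraries and 63.4 to 109 CPM in S. Syn1 had 13.3 CPM in In 1, against 41.6 and 33.8 CPM in the other In libraries and 37.2 to 48.2 CPM in S. In that library the pan-neuronal markers summed to 881 CPM, against 1160 to 1308 CPM in the other male In libraries and 1300 to 1338 CPM in S. Lists of other cells shifted there too. Oligodendrocyte markers summed to 10502 CPM in In 1, against 54136 and 77233 CPM in the other male In libraries. Microglial (2243, against 1637 and 1654 CPM) and pericyte markers (757, against 395 and 389 CPM) were higher in In 1. The part of these lists was not tested. Without In 1 still 0 members passed, Unc13a stood between -1.16 and -0.65 over all alternatives, and Rims1 (-0.14 ± 0.24) turned to 0.15.

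In females the values lay closer together, with a median absolute log2 fold change of 0.10, against 0.13 over all genes. In males these were 0.24 and 0.25, so all genes differed in the same way. Stx2, a syntaxin of the plasma membrane, had 8.02, 8.75 and 8.48 CPM in In, against 13.0, 11.4 and 10.6 CPM in S. All In libraries were lower, at -0.47 ± 0.20 (adjusted p = 1). Snap25 averaged 624 ± 153 CPM in In and 681 ± 114 CPM in S, and Vamp2 averaged 407 ± 24.5 CPM in In and 402 ± 31.0 CPM in S (SD, n = 3 each). Syt1, at 0.05 ± 0.22, lay near 0 with overlapping groups. The choroid plexus markers Folr1 and Tmem72 were higher in female In (8.20 ± 1.09 and 8.36 ± 1.24). The summed choroid plexus markers stood at 21.0 to 149 CPM in In and 1.41 to 2.4 CPM in S, with Ttr at 0 in both groups. Ependymal markers summed to 8.97 to 14.6 CPM in In and 1.5 to 2.58 CPM in S, with 1 of 5 called higher, and the part of both lists in the members' values was not tested.

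**Figure D3:**
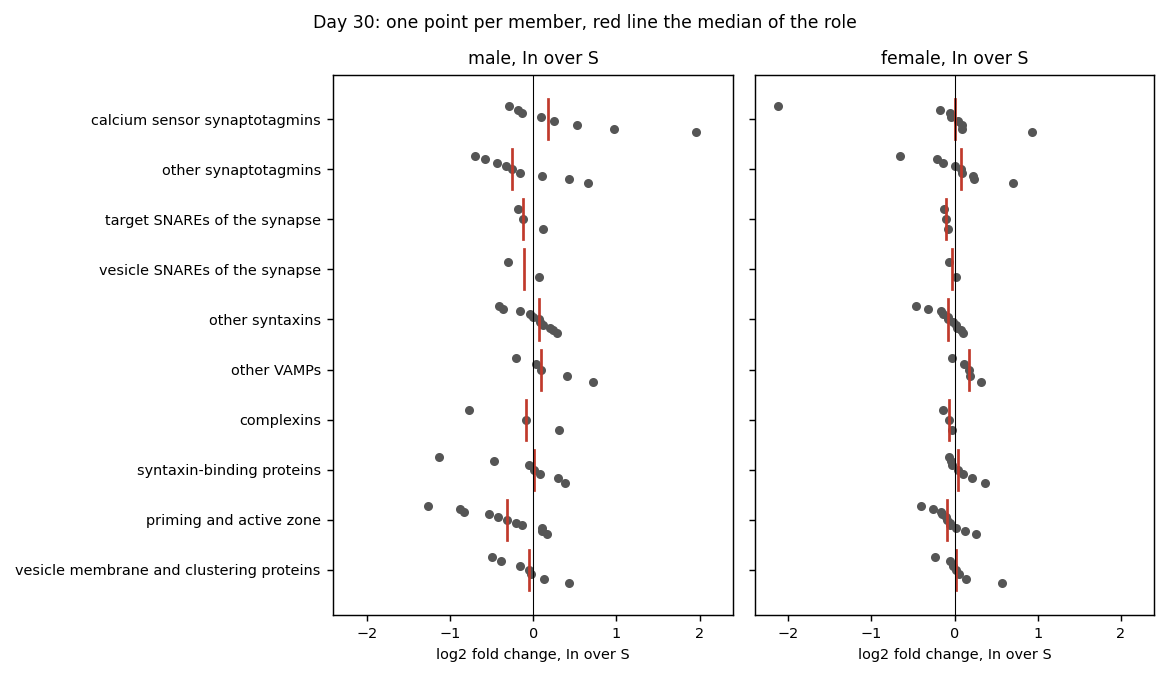
Log2 fold change of In over S at day 30 for the 66 tested members by role, in males and in females, with 1 point per member and a red line at the median of the role. No point passed the test. Male points spread more widely than female points, as did all genes. The median absolute value was 0.24 in males and 0.10 in females, against 0.25 and 0.13 over all genes. Syt10, near the limit of detection, lies farthest from 0 in both (1.95 in males and -2.12 in females).

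The In minus S difference was also compared between the sexes. No member passed (0 of 66 by edgeR, DESeq2 and limma-voom, with 0% of all genes called by edgeR), and 3 had an unadjusted p below 0.05 (4.11% of all genes). These were Rims3 (1.52 ± 0.60, female effect minus male effect), Unc13a (0.85 ± 0.37) and Syt10 (-4.08 ± 1.76), each with an adjusted p of 0.94. Rims3 and Unc13a were the members with the smallest p-values in males, at -1.27 and -0.84 there and 0.25 and 0.01 in females. A p that misses the threshold does not show that the sexes responded alike.

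Between the sexes, 1 of 66 members was called in S and 9 in In. The share of members called lay near that of all genes in both comparisons. In S, 2.97% of all genes were called, 1.7% higher and 1.27% lower, and 10 members and 19% of all genes had an unadjusted p below 0.05. Every female S library lay below every male S library in 7 members and above in 8, against 11.9% and 15.2% of all genes. Here Cplx3 fell in females against males. It had 8.94, 11.3 and 10.5 CPM in female S, against 17.1, 20.7 and 19.7 CPM in male S. The groups were far apart (-0.90 ± 0.21, adjusted p = 0.0334), yet the call ended without any 1 of 5 of the 6 S libraries and with library totals as the scale (-0.04, adjusted p = 0.9, from a range of 0.00334 to 0.9). Vamp2, at -0.50 ± 0.14, did not pass (adjusted p = 0.0713) but did by DESeq2.

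In the In libraries 6 members rose and 3 fell in females against males, with 12.7% of all genes called, 6.1% higher and 6.59% lower, and 21 members and 28.5% of all genes had an unadjusted p below 0.05. Cplx3 again fell, with 11.4, 10.4 and 7.58 CPM in female In, against 29.7, 23.5 and 18.2 CPM in male In (-1.28 ± 0.21, adjusted p = 0.00265). Vamp2 had 417, 425 and 379 CPM in female In, against 592, 633 and 568 CPM in male In, and fell by 0.56 ± 0.14 on the log2 scale (adjusted p = 0.0205). Stx4, a plasma membrane syntaxin of many cell types, had 48.6, 35.2 and 35.9 CPM in female In, against 77.9, 57.1 and 68.6 CPM in male In (-0.77 ± 0.18, adjusted p = 0.0123). The sexes did not overlap in any of the 3 genes on this scale, while with library totals as the scale Vamp2 and Stx4 turned to 0.35 and 0.13. Every female In library lay below every male In library in 8 members and above in 10, against 15.5% and 17.6% of all genes.

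Both of the widely used Munc13 genes were higher in female In. Unc13a had 28.4, 47.6 and 44.1 CPM in female In, against 13.7, 26.3 and 16.5 CPM in male In (1.08 ± 0.27, adjusted p = 0.0176). Unc13b had 8.62, 14.6 and 15.3 CPM in female In, against 3.71, 6.20 and 6.64 CPM in male In (1.22 ± 0.29, adjusted p = 0.014). In both genes the lowest female library lay above the highest male one. Stxbp5l was higher by 2.15 ± 0.59 (adjusted p = 0.0272), with 1.75, 5.98 and 2.42 CPM in female In, against 0.285, 0.721 and 1.27 CPM in male In. Sv2b (0.94 ± 0.29, adjusted p = 0.0467), Syt4 (0.67 ± 0.20, 0.038) and Syt11, a calcium-insensitive synaptotagmin (0.56 ± 0.16, 0.0336), also rose.

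**Figure D4:**
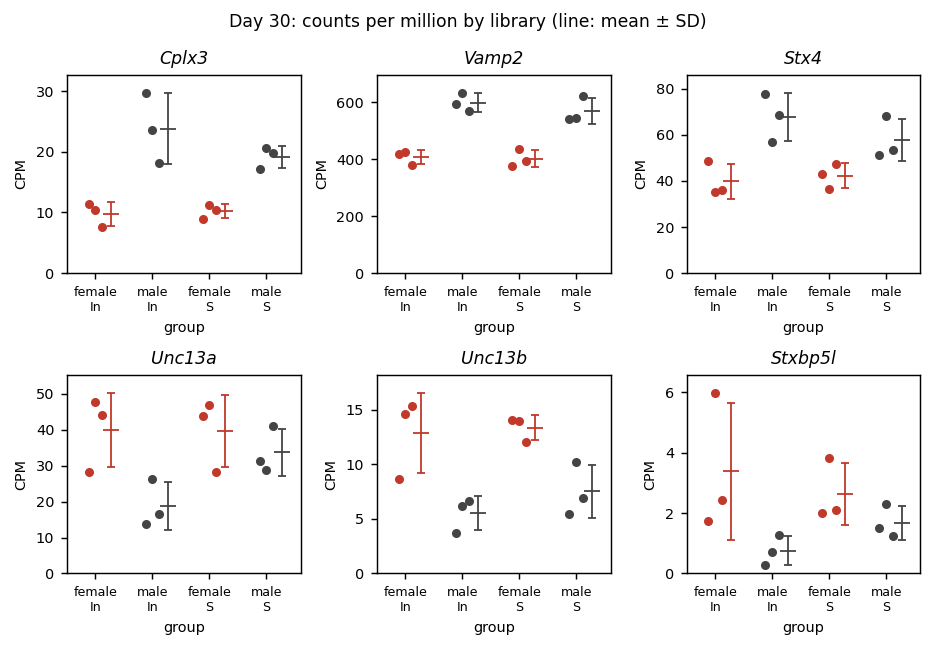
CPM in each day 30 library for 6 members, with the mean and SD of each group, for female In, male In, female S and male S. Cplx3, Vamp2 and Stx4 lie lower in female In than in male In on this scale (with library totals Vamp2 and Stx4 turn to 0.35 and 0.13), and Unc13a, Unc13b and Stxbp5l lie higher in female In than in male In.

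These calls between the sexes rest on the scaling and on few libraries. Mitochondrially encoded genes took 27 to 37.4% of counts in female libraries and 53.6 to 60.2% in male libraries. With library totals as the scale 43 members rose and 0 fell in S, and 46 rose and 0 fell in In, with medians over all genes of 0.88 and 0.94. Without female In 2, 0 members rose and 1 fell, without female In 3, 1 rose and 1 fell, and without male In 1, 1 rose. A fit to the In libraries alone left 0 higher and 1 lower, Cplx3. Over 14 alternatives Sv2b lost its In call in 8, Syt11 in 6, Stxbp5l, Syt4 and Unc13a in 5 each, Unc13b in 3 and Cplx3 in 1. Vamp2 lost its call in 4 and Stx4 in 3, and each changed sign in 1 more, library totals. Both failed without female In 2, without female In 3 and in the fit to the In libraries alone. The labels do not give a preparation or sequencing date, so a batch of that kind cannot be told apart from sex. Some endothelial, pericyte and microglial markers were higher in females as well. The microglial sum nevertheless averaged lower in female In (1656 CPM) than in male In (1845 CPM). In the In comparison 3 of 7 endothelial, 3 of 6 pericyte and 2 of 8 microglial markers rose, and in the S comparison 3, 2 and 2 did. The sums were 1107 to 1543, 497 to 788 and 1380 to 2103 CPM in female In and 942 to 1119, 389 to 757 and 1637 to 2243 CPM in male In. Astrocyte markers went the other way, with 1694 to 2956 CPM in female In and 3981 to 4829 CPM in male In, and 2 of 8 fell. Of 4 choroid plexus markers 3 were higher in female In, where they summed to 21.0 to 149 CPM, against 2.55 to 22.6 CPM in male In. In S, 1 of 8 astrocyte markers fell and no choroid plexus marker was called, and the part of these lists was not tested.

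Across the male libraries, the change at day 30 was set against the change at day 7. Of 64 tested members 4 differed, 1 higher and 3 lower at day 30, while 13% of all genes did so, 5.27% higher and 7.71% lower, and 19 members and 27.4% of all genes had an unadjusted p below 0.05. Sv2b stood at -0.16 ± 0.29 at day 30 and 1.43 ± 0.19 at day 7, a difference of -1.53 ± 0.30 (adjusted p = 0.00362). Syt4 stood at -0.43 ± 0.20 at day 30 and 0.98 ± 0.15 at day 7, a difference of -1.36 ± 0.25 (adjusted p = 0.0026). Sv2b and Syt4 passed in every alternative run. Syt13 differed by -1.43 ± 0.42 (adjusted p = 0.038) and Vamp4 by 0.64 ± 0.19 (adjusted p = 0.0388). Stx3, at -1.05 ± 0.33, missed the threshold (adjusted p = 0.053). Microglial and endothelial markers differed in the same direction as Sv2b, 8 of 8 and 7 of 7 being lower at day 30 than at day 7, as were 6 of 7 pericyte markers. In the other direction, 4 of 10 inhibitory neuron and 3 of 8 astrocyte markers were higher, and the part of these lists was not tested. Each day has its own table, so a difference between days cannot be told apart from a difference between the tables.

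**Figure D5:**
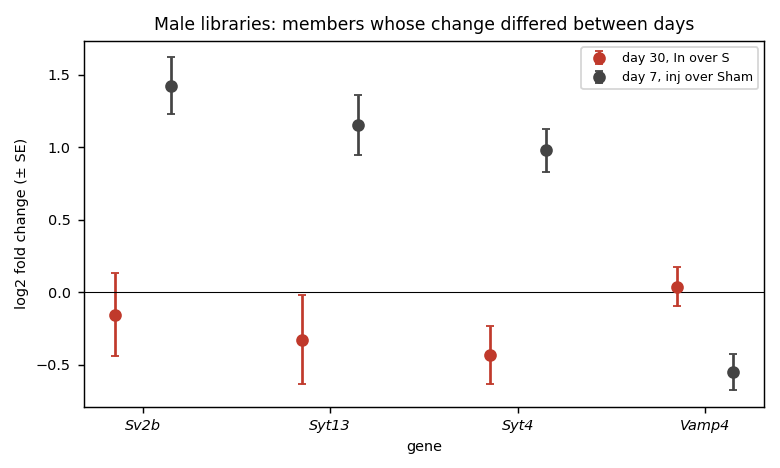
Log2 fold change with bars of 1 SE in male libraries at day 30 (In over S) and at day 7 (inj over Sham), from each day's own fit, for the 4 members whose change differed between days. Sv2b, Syt13 and Syt4 lie well above 0 at day 7 only, and Vamp4 lies below 0 at day 7 and near 0 at day 30.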

How the data were processed

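The authors deposited raw counts of reads for each gene symbol, with a separate table for each day. The labels name polyA RNA and library construction at Novogene. HISAT2, rn6 and edgeR appear in the submitters' processing notes, and versions, counter and strandedness were not given in the sources used here. Paralogs whose reads are shared could be affected by the use of unique alignments. The deposited day 30 table ends with summary lines, which were dropped together with unnamed lines. Reads without a unique alignment were 23.0 to 84.6% of the gene total and reads of no feature 12.0 to 17.9%.

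Members were found by symbol. A few items are not reported here one by one, though counts over all members include them. Members, roles and gene lists were chosen with earlier results of these data known. Genes named are a core of release genes, the members with the smallest p that passed in each direction (or the 3 smallest where none passed), and up to 3 per list, and others were chosen after their values were seen. The tests used edgeR 4.0.16 under R 4.3.3 (TMM, filterByExpr and robust quasi-likelihood F tests), with p-values adjusted by Benjamini-Hochberg over all genes tested, at 0.05. The common biological coefficient of variation was 0.175 at day 7, 0.259 at day 30 and 0.226 over male libraries. SE is the log2 fold change over the root of F. For the day 7 and day 30 male comparisons, the fit was also run on counts simulated with its own estimates of spread. Such counts cannot show how outlier libraries, repeated samples or the choice of scaling affect the calls. A floor of 3 counts is 0.995 to 1.12 CPM of the raw total in Sham and 0.108 to 0.206 elsewhere, and covers counting error only. Alternatives were DESeq2 1.42.0, RLE, library totals, no filter, CPM above 1 in 3 libraries, limma-voom (limma 3.58.1), each library left out, replicate number as a block, only the groups compared, and the sum of Sham 1 and Sham 1-RNA. Every pair of replicates differed by more than sampling noise, so none were merged. The chi-square per gene was 3.48 for Sham 1 and Sham 3, the lowest value, and 12.0 to 92.6 for the others. This value grows with depth and Sham libraries were the shallowest, so pairs of unlike depth cannot be ranked by it. For Sham 1 and Sham 1-RNA it was 35.1. Plots were made in Python 3.11.15 with matplotlib 3.10.9.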

Additional observations from a re-analysis of the deposited data

Results flagged for a closer look

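The change in male libraries differed between day 30 and day 7 in 4 members, by a test of the difference itself. These were Sv2b (-1.53, adjusted p = 0.00362), Syt4 (-1.36, 0.0026), Syt13 (-1.43, 0.038) and Vamp4 (0.64, 0.0388), each given as the day 30 effect minus the day 7 effect. Sv2b ranged from -1.87 to -1.32 and Syt4 from -1.72 to -1.12 over the alternatives, with adjusted p up to 0.0106 and 0.0089. Syt13 ranged from -1.79 to -1.13 and lost the call in 7 of 19 alternatives, and Vamp4 ranged from 0.30 to 0.69 and lost it in 15 of 19.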

How the results depend on the processing

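Members called under other settings are given as the number higher and the number lower. At day 7 (10 and 8) library totals gave 16 and 3 and limma-voom 15 lower, and leaving out 1 library gave 8 to 12 higher and 4 to 11 lower. In minus S at day 30 and its difference between the sexes stayed at 0 and 0 in every alternative run. For female against male S (0 and 1) library totals gave 43 and 0, limma-voom 1 and 2, DESeq2 2 lower and the compared groups alone 3 lower, and leaving out 1 library gave 0 to 1 lower. For female against male In (6 and 3) library totals gave 46 and 0, DESeq2 6 lower, limma-voom 7 lower and the compared groups alone 0 and 1, and leaving out 1 library gave 0 to 8 higher and 1 to 4 lower. For day 30 against day 7 (1 and 3) DESeq2 gave 3 and 6, library totals 0 and 9, limma-voom 10 and 7, and no filter and the CPM filter 0 higher, and leaving out 1 library gave 0 to 4 higher and 2 to 7 lower. The cause of these shifts was not tested.

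Core genes near 0 changed sign. At day 7 library totals gave Rab3a 0.19 and Vamp2 0.19, and limma-voom gave Rab3a 0.0055 and Syn2 0.082. Leaving out 1 library gave ranges for Cplx1 (-0.015 to 0.34), Rab3a (-0.15 to 0.082), Syn2 (-0.51 to 0.24) and Unc13a (-0.098 to 0.23). In day 30 males limma-voom gave Cplx1 0.087, Rims1 0.099, Snap25 0.097, Sv2a 0.091 and Syt2 0.13. Leaving out 1 male library gave Cplx1 (-0.24 to 0.13), Rims1 (-0.42 to 0.15), Snap25 (-0.37 to 0.17), Sv2a (-0.15 to 0.12), Syn2 (-0.15 to 0.063), Syt2 (-0.62 to 0.47) and Vamp1 (-0.57 to 0.058). In day 30 females library totals gave Cplx1 0.021, Sv2a 0.038 and Syn1 0.0074, and limma-voom gave Vamp2 -0.0010. Leaving out 1 female library gave Cplx1 (-0.15 to 0.081), Cplx2 (-0.31 to 0.00035), Rab3a (-0.27 to 0.078), Snap25 (-0.28 to 0.048), Sv2a (-0.23 to 0.15), Syn1 (-0.24 to 0.12), Syn2 (-0.11 to 0.19), Syp (-0.13 to 0.16), Syt1 (-0.22 to 0.23), Syt2 (-0.33 to 0.35), Unc13a (-0.18 to 0.20), Vamp1 (-0.17 to 0.077) and Vamp2 (-0.030 to 0.079). None of these passed a test in those fits. In female against male In, library totals turned Stx4 to 0.13 and Vamp2 to 0.35.

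Day 30 libraries with the same number correlated between -0.06 and 0.13 in their deviations from the group means. With 3 libraries in a group this cannot decide whether they are paired. With the replicate number as a block, In minus S kept 0 calls in each sex, Cplx3 lost its call in S (0 lower), and 6 members were higher and 4 lower in female against male In, with 7 of the 9 calls kept. In males the block gave Rab3a -0.00034 and Syn2 0.097. An unadjusted p below 0.05 was found there in 11 members and 1877 of 15074 genes with the block. Without the block these were 3 members and 1232 genes. The day 7 groups share fewer than 2 numbers, so no paired analysis was possible because only number 3 occurs in both. Depth limits the Sham libraries most, and members near 1 CPM, such as Syt9, Syt10 and Sv2c, had SEs of 0.56 to 0.67 at day 7.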
